A study of Mus musculus with 10 samples.

Results

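The transcripts described here encode the heat shock proteins and the DNAJ (J-domain) proteins of neurons in the mouse medial habenula. Members were the gene symbols that start with Hsp or Dnaj, other than Hspg2, a basement membrane proteoglycan, and pseudogene symbols. The table held 74 such genes among 32531, and 65 had at least 10 reads in at least 4 libraries. The 9 others were Dnajb7, Dnajb8, Dnajc22, Dnajc5b, Dnajc5g, Hspb2, Hspb3, Hspb7 and Hspb9, with at most 24 reads in any library. Of the 65 genes, 13 belong to the HSP70 family (Hspa), 3 are HSP90 genes, 3 are the large or chaperonin-type Hsph1, Hspd1 and Hspe1, 3 are small heat shock proteins (Hspb), and 4, 11 and 25 are DNAJA, DNAJB and DNAJC genes. The last 3, Hspb11, Hspbap1 and Hspbp1, share the first letters only: Hspb11 is a subunit of intraflagellar transport and Hspbp1 a regulator of HSP70.

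All libraries came from adult mice of the BAC transgenic line Chat-TRAP DW167, in which the ribosomal protein Rpl10a carries an EGFP tag in cells where the transgene's Chat (choline acetyltransferase) sequences are active. The left and the right medial habenula were dissected separately, 5 libraries were made from each side, and no treatment is named. Each library holds the RNA that came down with the tagged ribosomes on anti-EGFP antibodies (TRAP, an affinity purification of translating ribosomes), so a level is that of ribosome-bound RNA; no unpurified RNA was used here. The labels do not say whether a library pools animals or whether the libraries of a side come from different animals, so p-values measure the spread between these libraries, which may be technical.

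Heat shock proteins bind unfolded or partly folded proteins. HSP70 proteins hold and release their clients in cycles of ATP hydrolysis; J-domain proteins bring the clients and start hydrolysis, and exchange factors such as the HSP110 proteins (Hsph1, Hspa4, Hspa4l) release the nucleotide. HSP90 takes over clients that are nearly folded, among them kinases and steroid receptors. The endoplasmic reticulum and the mitochondria have chaperones of their own, and in neurons the pair of Hspa8 and the auxilin Dnajc6 strips clathrin from synaptic vesicles while Dnajc5 protects the release machinery. Part of the family is induced by heat shock factor HSF1 through heat shock elements in the promoter, and an endoplasmic reticulum set is induced through ER stress elements.

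The promoter windows were searched for a fixed spelling of each element near the start of transcription. Genes without a window were not searched. Other spellings or spacings were not counted, so a gene without a match may still carry an element. RefSeq windows (build GRCm38.p6, 250 bases before to 50 after a start) were at hand for 54 of the 65 genes. A heat shock element, searched as the units GAA, TTC and GAA with 2 free bases between neighbouring units on either strand, was found in Dnajb6, Hspd1, Hspe1 and Hsph1, which is 7.41% of the 54 genes, against 0.581% of 11526 tested genes and 0.662% of all 27025 genes with a window. The ER stress element, searched as CCAAT and CCACG with 9 free bases between them on either strand, was found in Dnajc3, Hsp90b1 and Hspa5, which is 5.56% of the 54 genes, against 0.165% of tested genes and 0.137% of all genes with a window. Matches of the heat shock element can overlap each other because the motif repeats; the 2 motifs did not overlap in any of these windows. The sequences below read 5′ to 3′ on the strand of the gene, with every matched base in capitals. They are printed because Hspe1 and Hspd1, read from the same stretch in opposite directions, and Hsph1 and Hspa5 had different patterns over the libraries. Windows are chr1:55087898-55088197 (plus strand) for Hspe1, chr5:149636266-149636565 (minus strand) for Hsph1, chr2:34771840-34772139 (plus strand) for Hspa5 and chr10:86705395-86705694 (minus strand) for Hsp90b1.
Hspe1: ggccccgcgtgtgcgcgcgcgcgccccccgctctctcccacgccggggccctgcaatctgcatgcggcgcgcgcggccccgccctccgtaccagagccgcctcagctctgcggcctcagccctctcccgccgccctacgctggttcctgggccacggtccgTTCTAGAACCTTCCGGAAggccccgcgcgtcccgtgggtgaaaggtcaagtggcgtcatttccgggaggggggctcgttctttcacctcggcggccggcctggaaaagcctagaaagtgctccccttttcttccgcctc
Hsph1: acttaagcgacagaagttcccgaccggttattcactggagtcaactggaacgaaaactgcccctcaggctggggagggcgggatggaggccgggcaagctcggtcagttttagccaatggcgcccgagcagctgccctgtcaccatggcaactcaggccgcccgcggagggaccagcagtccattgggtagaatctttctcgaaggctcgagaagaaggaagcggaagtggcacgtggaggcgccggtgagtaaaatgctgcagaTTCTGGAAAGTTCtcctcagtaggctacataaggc
Hspa5: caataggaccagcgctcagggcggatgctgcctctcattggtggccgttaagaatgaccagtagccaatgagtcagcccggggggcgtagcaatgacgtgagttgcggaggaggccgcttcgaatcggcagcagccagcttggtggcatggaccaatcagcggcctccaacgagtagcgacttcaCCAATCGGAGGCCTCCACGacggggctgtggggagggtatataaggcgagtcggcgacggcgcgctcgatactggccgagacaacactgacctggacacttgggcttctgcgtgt
Hsp90b1: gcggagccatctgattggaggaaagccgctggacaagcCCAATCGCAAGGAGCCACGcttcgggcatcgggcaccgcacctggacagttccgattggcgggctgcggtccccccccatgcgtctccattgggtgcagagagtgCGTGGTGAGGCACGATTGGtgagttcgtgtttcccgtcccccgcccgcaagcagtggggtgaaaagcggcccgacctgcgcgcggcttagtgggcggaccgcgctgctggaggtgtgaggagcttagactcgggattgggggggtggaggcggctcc

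In the Hspe1 window a pair of overlapping heat shock elements spans chr1:55088059-55088076, and the Hspd1 window of the other strand (chr1:55087883-55088182) shares 285 bases with it and holds the same pair. Hsph1 has its match after the start, from base 16 to base 28, and Hspa5 its ER stress element from base -65 to base -47. A match is a description of the letters and not evidence of binding.

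The libraries held 42488448 to 67942836 gene reads. Replicates 1 and 5 of a side were close to each other: with 1 for pure counting noise, the mean chi-square per gene of moderate count was 1.38 between right replicates 1 and 5, 2.65 between left replicates 1 and 5, and 4.56 to 86.8 in all other pairs. These pairs differ by more than counting noise and were kept as separate libraries, with sums and omissions of them as alternatives. Replicates 1 and 5 of both sides also held the least RNA of other cells. The summed level of 15 astrocyte markers was 719 to 768 CPM (counts per 1000000 gene reads) in these 4 libraries and 1210 to 3008 CPM in the other 6, and that of 10 oligodendrocyte markers 97.0 to 108 and 393 to 1631 CPM. All 10 microglial markers together reached 7.15 to 8.95 and 15.5 to 40.6 CPM, and 10 endothelial and pericyte markers 5.47 to 8.42 and 19.1 to 45.8 CPM. The 6 markers of thalamic neurons summed to 209 to 238 and 618 to 1419 CPM. Of the astrocyte sum, Atp1b2 alone gave 499 to 546 CPM in replicates 1 and 5 and 498 to 694 CPM in replicates 3 and 4. Slc1a2 had 33.1 to 38.5 and 638 to 1097 CPM in the same libraries. Replicates 1 and 5 were the 4 lowest libraries for 14 of the 15 astrocyte markers, against 24.4% of all tested genes. The 11 medial habenular markers, which include Chat, were all present and summed to 10556 to 11030 CPM in replicates 1 and 5 and to 5193 to 9060 CPM in the others. None of the markers was at 0 in all libraries. In the sections that follow, the part of these other cells in a difference between libraries was not tested unless a value says more, and fewer cells of a type and less RNA per cell cannot be told apart.

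The comparison of the sides asked whether left and right habenular neurons differ in chaperone transcripts. None of the 65 genes passed the threshold, and the fitted log2 differences, left minus right, ran from -0.27 for Dnajb13, a gene of sperm tails and cilia, to 0.21 for Dnajc25. By edgeR's quasi-likelihood test with Benjamini-Hochberg adjustment over 16681 genes, 0 of 65 genes had an adjusted p under 0.05, where the background over all genes was 0% (0 of 16681), and 0 of 65 had an unadjusted p under 0.05 (0.540% of all genes). DESeq2 also gave 0 and 0, and limma-voom with sample weights 0 and 6, in a fit where 2672 of all genes had such a p. Chance alone gives such a p for about 1 in 20 genes, so edgeR's 0.540% was low. A count of 0 in the edgeR fit therefore does not show that the sides are equal. The median log2 fold change, left minus right, was -0.012 over the 65 genes and -0.0097 over all genes tested. Fitted values were above 0 for 24 genes and below 0 for 41, but for 36 and 29 with scaling by total count alone, and for 39 and 24 of the 63 genes tested in replicates 1 and 5 alone. Leaving out 1 library also turned the majority (36 and 29 without left replicate 3, 35 and 30 without right replicate 1, 33 and 32 without left replicate 2). The 95% interval lay within -1 to 1 for 58 genes and within -0.5 to 0.5 for 33.

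Among genes of at least 1 CPM, the largest fitted differences were those of Dnajb1, Hspa2, Dnajc25, Hspa1a, Dnajb6 and Dnajb12. Dnajb1, the main J-protein partner of HSP70 in the cytosol, had the smallest unadjusted p of the family by edgeR's quasi-likelihood test (adjusted p = 0.9999) at a log2 fold change of -0.24 (95% interval -0.60 to 0.12). It was read at 119, 104, 108, 76.7 and 116 CPM in left replicates 1 to 5 and at 113, 117, 106, 157 and 115 CPM in right replicates 1 to 5. The sides overlapped, and the highest value, in right replicate 4, and the lowest, in left replicate 4, came from libraries of the same lane. Dnajb12, a J-protein of the endoplasmic reticulum membrane, had 19.8 ± 2.17 CPM in left and 17.5 ± 3.62 CPM in right libraries (SD, n = 5), a log2 fold change of 0.16 (95% interval -0.17 to 0.48). Dnajc25 was low, with 2.62 ± 0.222 CPM in left and 2.24 ± 0.483 CPM in right libraries and a log2 fold change of 0.21 (95% interval -0.23 to 0.64). The narrowest intervals were those of Dnajc18, with a log2 fold change of -0.025 (95% interval -0.19 to 0.14), and Dnajc27, with 0.025 (95% interval -0.16 to 0.21). Some intervals of the fit without the replicate number were wide. Those of Hspa2 at -0.22 (95% interval -1.36 to 0.93) and Hspb1 at -0.013 (95% interval -1.86 to 1.83) were among them. With the replicate number as a block, the log2 fold change of Hspa2 was -0.19. Its SE was 0.090, against 0.51 without the block. Hspb1, which has 3 to 78 reads per library, had -0.20 with an SE of 0.44, against 0.83. In the block fit edgeR's unadjusted p was 0.061 for Hspa2 and 0.66 for Hspb1, and the adjusted p was 0.99985 for both.

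**Figure D1:**
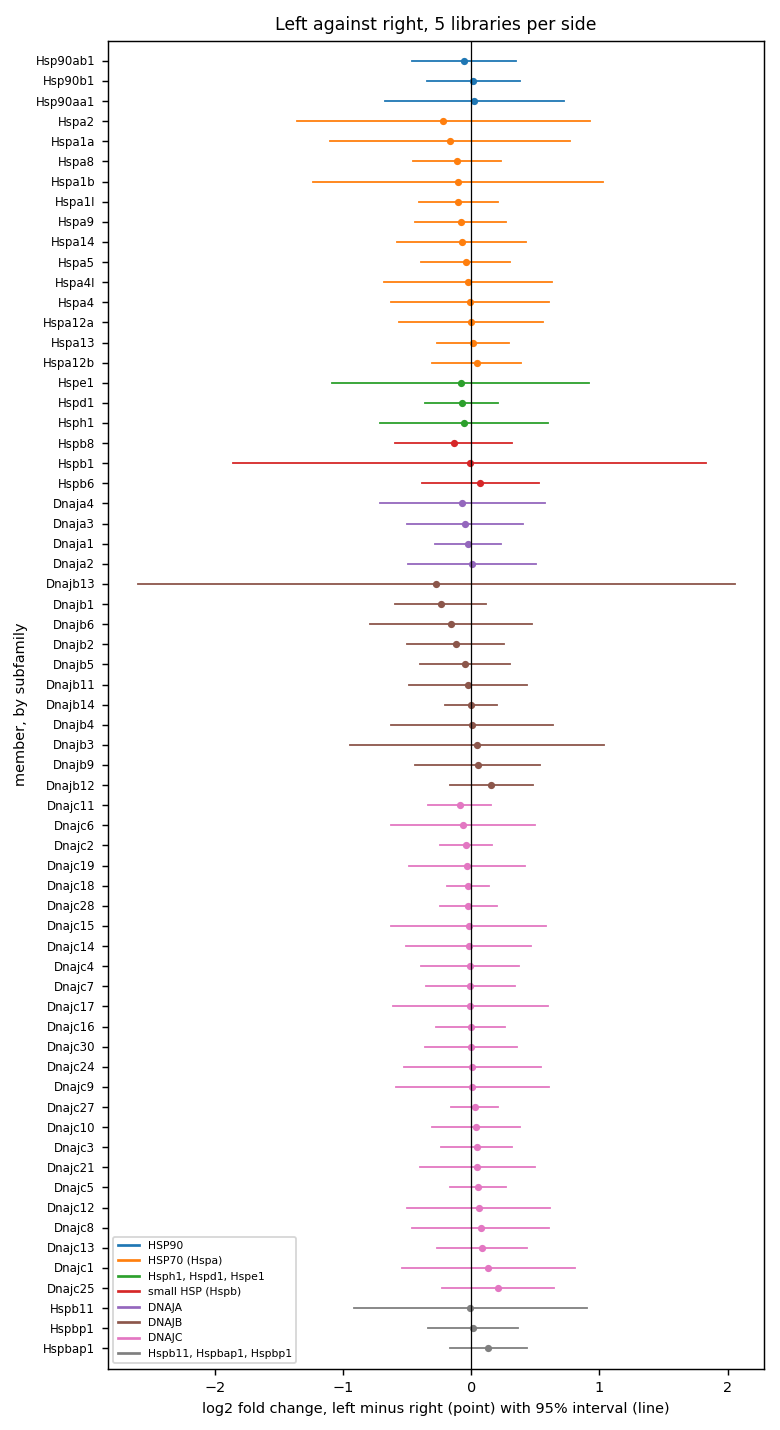
Log2 fold change, left minus right, of the 65 genes (horizontal axis; points are edgeR estimates, lines 95% intervals, 5 libraries per side), grouped and coloured by subfamily. All intervals include 0; the widest are those of Dnajb13 and Hspb1, which have mean levels of 0.352 and 0.512 CPM.

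Replicates 1 and 5 alone, 4 libraries with little glial RNA, gave calls: 3 of 63 genes passed in edgeR against 9.61% of all genes in that fit. Dnajb5 was lower on the left (log2 fold change -0.35, adjusted p = 0.0185), and Dnajc1 and Dnajc8 were higher on the left (0.45 with adjusted p = 0.0278, and 0.20 with adjusted p = 0.0403). Dnajb5, a J-protein of the DNAJB class, was read at 44.8, 44.3, 63.7, 62.8 and 46.5 CPM in left replicates 1 to 5 and at 57.9, 41.4, 60.1, 48.7 and 58.5 CPM in right replicates 1 to 5. In replicates 1 and 5 the left values were below the right ones, while in replicates 2, 3 and 4 the left values were above. The labels do not say whether the nearly alike replicates 1 and 5 of a side come from different animals, so this count rests on 2 close libraries per side.

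Per kilobase of exon, Hsp90ab1 stood far above every other gene of the family. Its mean was 684 CPM per kb, with 554 to 898 over the libraries, so its lowest library was above the highest of any other member. Hspa4, Hsp90aa1, Dnaja2, Dnajc5, Hspb6, Hsph1, Hsp90b1, Dnajc6 and Hspa8 followed at 96.4, 93.4, 82.6, 77.9, 77.7, 75.0, 71.9, 71.9 and 68.7 CPM per kb. Their ranges over the libraries overlapped, for example 71.0 to 139 for Hspa4 and 52.8 to 79.1 for Hspa8, so the order among these 9 genes is not separated by the spread. At the lower end Hspb1, Hspa1b and Dnajb13 stood at 0.496, 0.445 and 0.129 CPM per kb. Length is the union of all annotated exons (GENCODE M21), so a level per kilobase is lower where long exons are rarely used.

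**Figure D2:**
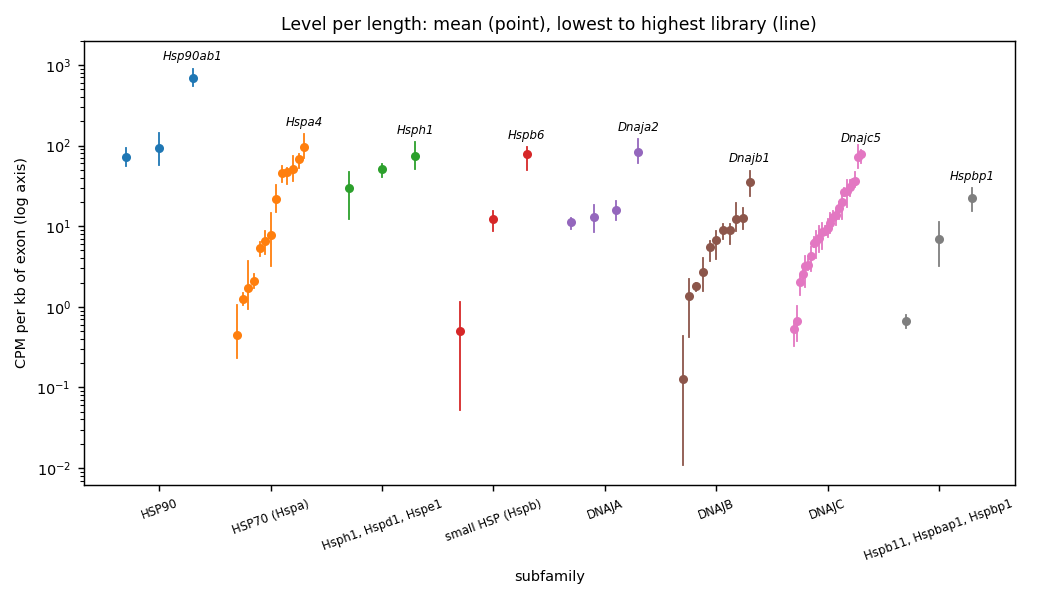
CPM per kilobase of exon (log axis) of the 65 genes by subfamily; points are means over 10 libraries and lines run from the lowest to the highest library. Hsp90ab1 has the highest level at 684, and the top gene of each subfamily is named.

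Near-identical copies limit some of these levels, because a read that matches more than 1 gene cannot be assigned from its sequence; the labels do not say how such reads were counted. Of the 50-base stretches of the longest coding transcript, 74.8% were also present in transcripts of other genes for Hspa8, 66.3% for Hspa1a, 62.3% for Hspa1b, 71.4% for Hspa1l, 58.5% for Hsp90aa1 and 44.8% for Hspd1, against 4.49% for Hsp90ab1. At least 25% was shared for 13 of the 65 genes, including Hspb1 at 51.6%. The levels of these genes are uncertain to that extent, Hspa8, the constitutive HSP70, among them. Hspa1a (chr17:34969190-34972156) and Hspa1b (chr17:34956436-34959238, both on the minus strand) are neighbouring copies of each other, Hspa1l shares 71.93% of its exonic bases with Gm10501 of the other strand, and Dnaja4 shares 44.05% of its exonic bases with Wdr61 of the other strand.

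The cytosolic HSP90 genes were higher in replicates 3 and 4 of both sides than in every other library. Hsp90ab1, the constitutive form, was read at 1771, 1661, 2429, 2517 and 1773 CPM in left replicates 1 to 5 and at 1795, 1757, 2694, 2329 and 1774 CPM in right replicates 1 to 5. Hsp90aa1, the inducible form, was read at 254, 307, 483, 571 and 258 CPM in left replicates 1 to 5 and at 229, 327, 517, 479.7 and 247 CPM in right replicates 1 to 5. For both genes the 4 libraries of replicates 3 and 4 were the highest, and the sides overlapped. Hsp90aa1 spanned 2.49-fold over the libraries and Hsp90ab1 1.62-fold, while the side differences were 0.024 (95% interval -0.68 to 0.72) and -0.056 (95% interval -0.46 to 0.35) on the log2 scale. Hsp90b1, the HSP90 of the endoplasmic reticulum, had 227 to 264 CPM in replicates 1 and 5, its 4 lowest values, and its highest value, 375 CPM, in right replicate 4.

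The HSP110 exchange factors had the same 4 highest libraries as the cytosolic HSP90 genes. Hsph1 was read at 413, 432, 762, 725 and 372 CPM in left replicates 1 to 5 and at 396, 449, 798, 725 and 380.0 CPM in right replicates 1 to 5. Hspa4 was read at 401, 396, 723, 771 and 393 CPM in left replicates 1 to 5 and at 393, 466, 727, 666 and 392 CPM in right replicates 1 to 5. Replicates 3 and 4 of both sides formed a separate upper group for each, with 725 to 798 CPM against at most 449 CPM elsewhere for Hsph1. The third member, Hspa4l, had 321 to 380.3 CPM in replicates 3 and 4, 179 to 216 in replicates 1 and 5 and 203 and 188 in replicate 2 of the left and right side. Their side differences were -0.057 (95% interval -0.71 to 0.60), -0.0088 (95% interval -0.62 to 0.61) and -0.028 (95% interval -0.68 to 0.63).

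The stress-inducible HSP70 genes were low. Hspa1a was read at 4.06, 3.20, 7.65, 5.95 and 3.45 CPM in left replicates 1 to 5 and at 3.01, 3.62, 10.8, 6.40 and 2.81 CPM in right replicates 1 to 5. Hspa1b was read at 0.826, 0.760, 1.96, 1.87 and 0.668 CPM in left replicates 1 to 5 and at 0.775, 0.783, 2.92, 1.27 and 0.648 CPM in right replicates 1 to 5. Both were highest in right replicate 3, and all libraries of replicates 3 and 4 lay above all others. Over the libraries they spanned 3.86-fold and 4.51-fold. Immediate early genes, which respond to stimulation and handling, summed to 283 to 349 CPM in the same 4 libraries. Their sum was 242 and 277 CPM in replicate 2 and 91.0 to 109.5 CPM in replicates 1 and 5. Egr1 alone was 40.3 to 50.5 CPM in replicates 1 and 5 and 137 to 183 CPM in replicates 3 and 4. In left and right replicate 2 Egr1 was 145 and 137 CPM, while Hspa1a there was 3.20 and 3.62 CPM. Of the 10 immediate early genes, 4 had their 4 highest values in replicates 3 and 4, against 18.7% of all tested genes. The part of immediate early genes in the Hspa1a and Hspa1b levels was not tested.

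Constitutive cytosolic HSP70 behaved differently. Hspa8 was read at 336, 234, 278, 259 and 327 CPM in left replicates 1 to 5 and at 310.4, 227, 333, 340.2 and 308 CPM in right replicates 1 to 5. Its lowest values were those of replicate 2 on both sides, and replicates 1 and 5 lay within the range of replicates 3 and 4. Hspa12a, a distant HSP70 relative abundant in brain, had 541 to 677 CPM in replicates 3 and 4 and 334 to 370.2 CPM in replicates 1 and 5. Hspa2, a form known from testis and also made in brain, spanned 4.49-fold. Hspa2 was read at 8.48, 16.9, 30.2, 31.6 and 9.08 CPM in left replicates 1 to 5 and at 10.1, 15.9, 38.1, 34.3 and 10.6 CPM in right replicates 1 to 5. It was lowest in replicates 1 and 5, between in replicate 2 and highest in replicates 3 and 4, and so were the summed astrocyte markers. Hspa12b, an HSP70 relative of endothelial cells, stood at 3.87 to 5.42 CPM, with its 4 highest values in replicates 3 and 4. Hspa14, an HSP70 that binds ribosomes, ran the other way, with 31.7 to 35.5 CPM in replicates 1 and 5 and 18.3 to 22.4 CPM in replicates 3 and 4; Hspa1l, a gene next to Hspa1a, stayed between 4.22 and 6.33 CPM and Hspa13, an HSP70 relative of microsomes, between 29.3 and 43.5 CPM.

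**Figure D3:**
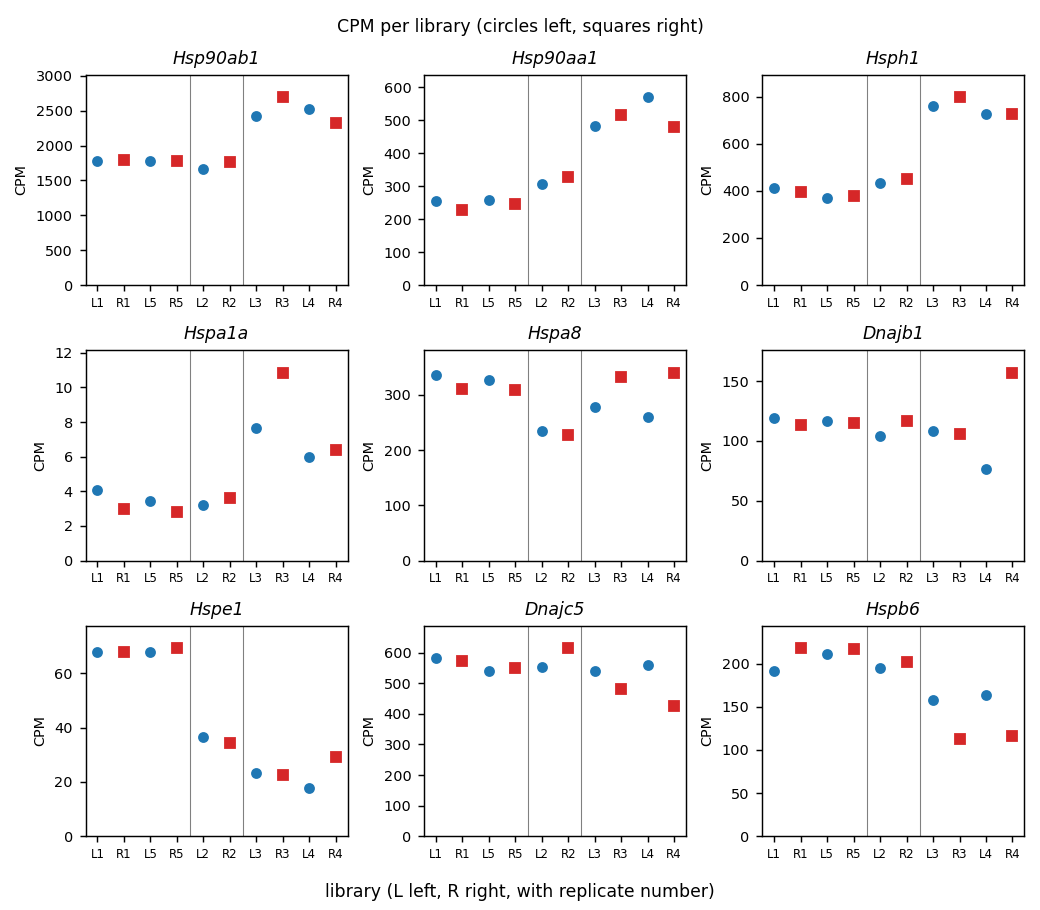
CPM of 9 genes (vertical axes, from 0) in each of the 10 libraries, left as circles and right as squares; grey lines separate replicates 1 and 5, replicate 2, and replicates 3 and 4. Hsp90ab1, Hsp90aa1, Hsph1 and Hspa1a are higher in replicates 3 and 4, and Hspe1 is highest in replicates 1 and 5. The ranges of left and right points overlap for each gene. Some same-numbered points lie apart, as in left and right replicate 4 for Dnajb1 (76.7 and 157 CPM) and Dnajc5 (561 and 425 CPM).

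The mitochondrial chaperones did not move as a unit. Hspa9, the mitochondrial HSP70, had 211 to 238 CPM in replicates 3 and 4, its highest values, and 152 and 152 CPM in left and right replicate 2, its lowest. Hspd1, the HSP60 chaperonin, was read at 153, 108, 137, 121 and 142 CPM in left replicates 1 to 5 and at 134, 118, 144, 155 and 134 CPM in right replicates 1 to 5. Hspe1, the HSP10 lid of that chaperonin, was read at 67.8, 36.4, 23.1, 17.9 and 67.8 CPM in left replicates 1 to 5 and at 67.8, 34.3, 22.6, 29.4 and 69.3 CPM in right replicates 1 to 5. Hspe1 fell into a separate high group, replicates 1 and 5, and spanned 3.86-fold, while Hspd1 spanned 1.43-fold with replicate 2 lowest and the ranges of replicates 1 and 5 and of replicates 3 and 4 overlapping. Hspd1 and Hspe1 share the promoter stretch described above, and 44.8% and 44.8% of their 50-base stretches are present in other annotated genes. Side differences were -0.076 (95% interval -0.36 to 0.21) and -0.081 (95% interval -1.08 to 0.92). Among mitochondrial J-proteins, Dnaja3 and Dnajc15 had 74.1 to 81.5 and 52.8 to 57.6 CPM in replicates 1 and 5, their 4 highest libraries, and 46.3 to 55.6 and 26.5 to 30.2 CPM in replicates 3 and 4. Dnajc19, of the import motor, was also highest in replicates 1 and 5 and had 5.63 to 6.99 CPM in replicates 3 and 4.

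In the endoplasmic reticulum, Hspa5 (BiP), the HSP70 of that compartment, was read at 225, 153, 191, 210.3 and 204 CPM in left replicates 1 to 5 and at 217, 141, 222, 208 and 209 CPM in right replicates 1 to 5. Right replicate 2, at 141 CPM, and left replicate 2, at 153 CPM, were its lowest libraries. The J-proteins that work with it, Dnajb9, Dnajb11, Dnajc1, Dnajc3 and Dnajc10, had means of 17.2, 41.3, 7.71, 66.9 and 83.3 CPM. Dnajb11 and Dnajb9 were highest in replicates 1 and 5, while Dnajc1 was highest in replicates 3 and 4 (8.69 to 11.9 against 4.37 to 6.71 CPM). Dnajc10 had its 4 lowest values in replicates 3 and 4 (61.8 to 74.8 CPM), and Dnajc3, with 54.8 to 78.8 CPM, had neither order. The 3 genes with a match to the ER stress element were Hspa5, Hsp90b1 and Dnajc3. They spanned 1.60-fold, 1.65-fold and 1.44-fold over the libraries and did not share an order.

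Of the small heat shock proteins, Hspb6 was abundant and Hspb1 was near the lower limit of counting. Hspb6 (HSP20) was read at 192, 195, 158, 164 and 211 CPM in left replicates 1 to 5 and at 218, 202, 113, 116 and 217 CPM in right replicates 1 to 5. Its 4 lowest values were those of replicates 3 and 4, the libraries with the most astrocyte and oligodendrocyte RNA. Hspb8, which works with the exchange factor Bag3, had 28.6 to 29.8 CPM in replicates 1 and 5, its 4 highest libraries, and 16.8 to 25.7 CPM in replicates 3 and 4. Hspb1 (HSP25), the heat-inducible form known from vessels and glia, had 3 to 78 reads per library (0.0541 to 1.18 CPM). It had 0.0541 to 0.221 CPM in replicates 1 and 5, 0.665 and 0.353 CPM in left and right replicate 2 and 0.635 to 1.18 CPM in replicates 3 and 4. The related Cryab, an oligodendrocyte-rich small heat shock protein outside the symbol rule, had 7.43 to 8.77 CPM and 49.8 to 73.2 CPM in replicates 1 and 5 and in replicates 3 and 4.

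Of the 15 J-proteins of classes A and B, 8 had their 4 highest values in replicates 1 and 5, an order found in 22.4% of all tested genes and 31.5% of genes of at least 10 CPM, and 1 in replicates 3 and 4, an order found in 18.7% of all tested genes. Dnaja2, a main HSP70 partner, was read at 356, 179, 203, 190.1 and 311 CPM in left replicates 1 to 5 and at 304, 201, 205, 222 and 287 CPM in right replicates 1 to 5. Replicates 1 and 5 had 287 to 356 CPM and no other library passed 222 CPM. Dnaja1, its relative, had 78.8 to 110.4 CPM, and Dnaja4 had 62.2 to 66.2 CPM in replicates 1 and 5 and 30.2 to 33.6 CPM in replicates 3 and 4. Dnajb4 was read at 123, 80.9, 81.4, 80.8 and 171 CPM in left replicates 1 to 5 and at 107, 88.2, 77.4, 88.2 and 167 CPM in right replicates 1 to 5. The libraries of replicate 5 were its highest and those of replicate 1 next on both sides. Dnajb6, a suppressor of protein aggregation, was also highest in replicate 5, with 24.1 and 23.4 CPM on the left and right, and the next library was right replicate 4 with 18.9 CPM. The HSF1-inducible Dnajb1 did not follow Hspa1a: in replicates 1 and 5 it had 113 to 119 CPM, in replicates 3 and 4 76.7 to 157 CPM. Dnajb2, a J-protein rich in neurons, had 25.2 to 45.6 CPM; Dnajb14 of the endoplasmic reticulum membrane was among the 4 steadiest genes at 24.6 to 31.3 CPM. The testis gene Dnajb3 had 0.447 to 2.31 CPM, and Dnajb13, of sperm tails and cilia, 0.0294 to 1.18 CPM with 2 to 50 reads.

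The synaptic J-proteins were the most abundant of class C. Dnajc5 (cysteine string protein), which guards the vesicle release machinery, was read at 582, 552, 539, 561 and 540.4 CPM in left replicates 1 to 5 and at 574, 614, 480.4, 425 and 549 CPM in right replicates 1 to 5. Its lowest values were right replicates 3 and 4, and left replicates 3 and 4 lay close to replicates 1 and 5. Dnajc6 (auxilin), which recruits Hspa8 to clathrin coats, was read at 330.0, 365, 511, 586 and 309 CPM in left replicates 1 to 5 and at 332, 347, 596, 548 and 323 CPM in right replicates 1 to 5. Dnajc6 was highest in replicates 3 and 4 and Hspa8 was not, so the ratio of these partners was not constant over the libraries. The steadiest genes of the family were Dnajc18, Dnajc27, Dnajc2 and, from class B, Dnajb14: Dnajc18 had 184 to 205 CPM, Dnajc27, a J-protein with a small GTPase domain, 121 to 153 CPM, and Dnajc2, which works on the ribosome, 39.7 to 50.1 CPM. Dnajc7, which links HSP70 and HSP90, had 203 to 230.0 CPM in replicates 1 and 5 and 149.6 to 161 CPM in replicates 3 and 4. Dnajc13, an endosomal protein, ran the other way with 87.2 to 107 and 119 to 146 CPM. The whole class summed to 2132 to 2336 CPM per library, the smallest ratio of highest to lowest library among the subfamilies. The remaining class C genes were below Dnajc10 in mean level.

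Among the 65 genes, 2 opposite orders of the libraries were counted, and 29 genes had neither. The 4 highest libraries were replicates 1 and 5 of both sides for 21 genes (32.3%), against 22.4% of all tested genes and 31.5% of genes of at least 10 CPM, so this share lies near the background of abundant genes. The 4 highest were replicates 3 and 4 of both sides for 15 genes (23.1%), against 18.7% of all tested genes. Among the 13 HSP70 family genes, 8 had this second order (Hspa1a, Hspa1b, Hspa2, Hspa4, Hspa4l, Hspa9, Hspa12a and Hspa12b) and 2 the first; among the 40 DNAJ genes, 4 had the second (Dnajb13, Dnajc1, Dnajc6 and Dnajc13) and 16 the first. With library sizes scaled by TMM the 2 counts were 22 and 17, and with median-of-ratios factors 20 and 18. These groups of libraries were chosen with the values known, so the counts are a description. Hspa1a and Hspa1b are near-identical copies, so their orders are not separate observations. The first component of log2 CPM over 63 genes of at least 1 CPM held 80.7% of their variance. On it replicates 1 and 5 stood at 0.318 to 0.352, replicate 2 at 0.0606 and 0.0649, and replicates 3 and 4 at -0.444 to -0.283. The same share over all tested genes was not computed, so 80.7% cannot be called particular to the family.

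Exon length was compared between the 2 sets without a test. The median exon length was 2975 bases for the 21 genes highest in replicates 1 and 5 and 4310 bases for the 15 genes highest in replicates 3 and 4. Over all tested genes with a length the medians of the same sets were 3342 and 6461 bases. The part of length in the 2 orders was not tested.

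**Figure D4:**
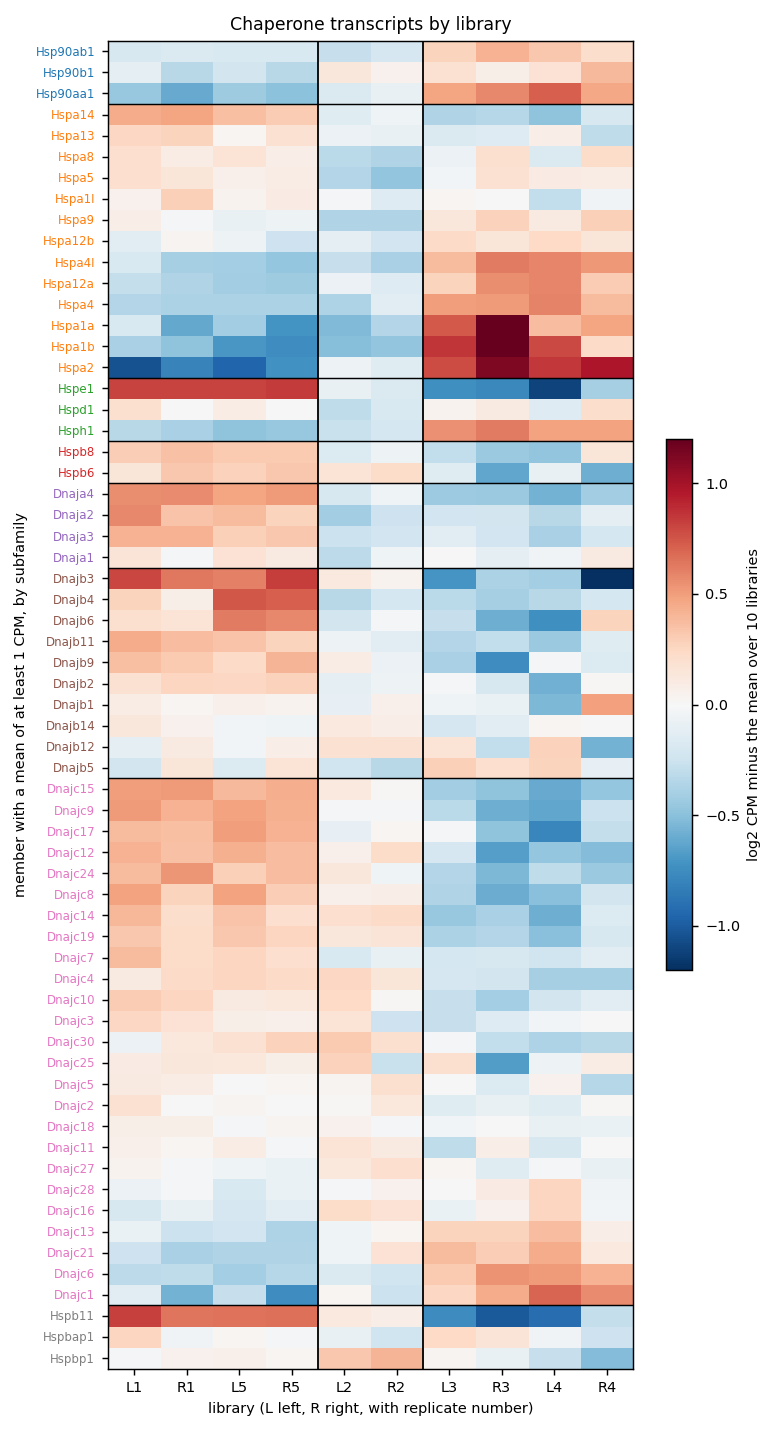
Log2 CPM minus the mean over 10 libraries for 63 genes of at least 1 CPM (rows, coloured and separated by subfamily) in each library (columns; L left, R right, with replicate number); colours saturate at 1.2 on either side. The Hsp90ab1, Hsp90aa1, Hspa4, Hspa1a and Hsph1 rows are high in replicates 3 and 4. Of the DNAJ genes, 16 of 40, and also Hspe1, have their 4 highest values in replicates 1 and 5. Columns of the same replicate number are broadly alike on both sides, with exceptions such as Dnajb1 in replicate 4.

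The partners of the chaperones were examined from lists of cofactors. No gene of any list passed the threshold between the sides in edgeR. Counts were 0 of 5 for heat shock factors with Hsbp1, 0 of 11 for other HSF1-inducible genes and 0 of 15 for HSP90 co-chaperones. They were 0 of 14 for HSP70 cofactors, 0 of 21 for ER folding genes and 0 of 14 for chaperonin and prefoldin genes. For immediate early genes the count was 0 of 10. Median log2 fold changes of these 7 lists lay between -0.052 (chaperonin and prefoldin) and -0.0062 (immediate early genes), against -0.0097 over all genes. Hsf1, the master regulator of the heat shock response, stood at 57.4 ± 5.39 CPM in left and 52.6 ± 9.78 CPM in right libraries with a log2 fold change of 0.11 (95% interval -0.19 to 0.40). Hsbp1, a small protein that binds HSF1, was more abundant in CPM, with 664 to 727 CPM in replicates 1 and 5 and 396 to 543 CPM in replicates 3 and 4. Stip1, which passes clients from HSP70 to HSP90, had 150.0 to 224 CPM, and Cdc37l1, a relative of the kinase co-chaperone Cdc37, 191 to 265 CPM. Zfand2a, an HSF1-inducible gene, had 143 to 210.5 CPM.

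HSP90 co-chaperones and the cytosolic chaperonin did not follow the HSP90 genes over the libraries. The 4 highest libraries were replicates 1 and 5 for 12 of 15 HSP90 co-chaperones and 12 of 14 chaperonin and prefoldin genes, and replicates 3 and 4 for 0 and 1, against 22.4% and 18.7% of all tested genes and 31.5% and 18.7% of genes of at least 10 CPM. Of the 13 members counted as HSF1-inducible, 2 had the first order and 6 the second. The co-chaperone sum was 1361 to 1404 CPM in replicates 1 and 5, against 947 to 1104 CPM elsewhere. The HSP90 and HSP70 genes together reached 3957 to 4146 CPM in replicates 1 and 5, 3938 and 4048 CPM in replicate 2, and 5608 to 6187 CPM in replicates 3 and 4. Bag1, an HSP70 exchange factor, was 213 to 241 CPM in replicates 1 and 5 and 119 to 142 CPM in replicates 3 and 4; St13, an HSP70 cofactor, was 156 to 184 and 127 to 153 CPM. Cct2 and Cct6a, subunits of the cytosolic chaperonin, had 202 to 217 and 255 to 282 CPM in replicates 1 and 5 and 161 to 178 and 206 to 268 CPM in replicates 3 and 4, with overlap for Cct6a. Of the 21 ER folding genes 12 were highest in replicates 1 and 5; Canx, the membrane chaperone calnexin, was not one of them (248 to 309 CPM), and Sel1l, of ER-associated degradation, was 153 to 177 CPM in replicates 3 and 4 and 123 to 134 CPM in replicates 1 and 5.

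**Figure D5:**
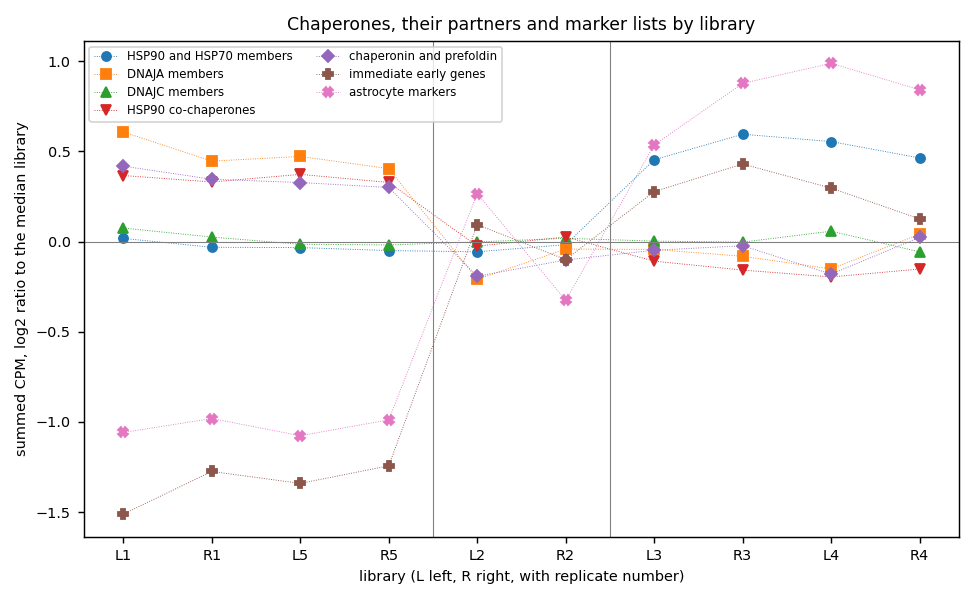
Summed CPM of gene groups in each library as log2 ratio to the median library (vertical axis); dotted lines only link points of a group. HSP90 and HSP70 genes are highest in replicates 3 and 4 on both sides, DNAJA genes, HSP90 co-chaperones and chaperonin genes are highest in replicates 1 and 5, DNAJC genes stay within 2132 to 2336 CPM, and immediate early genes and astrocyte markers are lowest in replicates 1 and 5.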

How the data were processed

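RNA bound to EGFP-tagged ribosomes was sequenced in 5 left and 5 right medial habenula libraries. The authors deposited 1 table of raw read counts per gene for each library. HTSeq, STAR 2.0.0e and the mouse build mm10 are named, per the submitters' processing notes; for the annotation, strand setting, read length and filters the sources used here give nothing. Rows that name no gene (6 per table) were left out. Counting without strand would mix reads of overlapping genes, and reads shared by near-identical copies may be lost or misplaced.

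Genes with at least 10 reads in at least 4 libraries (16681) were fitted with edgeR 4.0.16 in R 4.3.3 (quasi-likelihood F test, TMM factors, robust, side as the only term, left minus right), with Benjamini-Hochberg adjustment over all of them and a threshold of 0.05. The 95% intervals come from the same fit. Levels are counts per 1000000 gene reads (CPM), computed here. DESeq2 1.42.0, limma 3.58.1 with voom, other scalings and filters, a glial covariate and omissions of libraries were alternatives. The test was also run on simulated counts drawn independently for each library. These lacked the differences between replicate numbers that both sides share, so they do not show how the test performs on these libraries. Depth of 42488448 to 67942836 reads per library leaves genes near 10 reads imprecise.

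Replicate numbers were treated as pairs in the block alternatives only, and the main fit described above used side as its only term. Deviations from the side means correlated between same-numbered libraries at 0.92, 0.21, 0.90, 0.81 and 0.94 for numbers 1 to 5 (13274 genes). The right library closest to left replicates 2 and 4 was right replicate 3, not that of the same number. Pairing by number rests on shared lanes for numbers 2 to 5, and for numbers 2 and 4 the correlation did not single out the same number. The labels do not state a pairing.

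Members and lists were chosen with earlier results of these data known. Named in full were the 10 genes of highest mean CPM, the 2 highest of each subfamily, and, from 1 CPM, the 6 with the largest side difference, the 8 with the largest and the 4 with the smallest SD of log2 CPM, with a set of well-known chaperones, and the 2 highest genes of each partner list. Other genes were named after their values were seen. Promoter windows and letters are from RefSeq (GRCm38.p6); coordinates are GRCm38, and exon lengths are from GENCODE M21. Overlap was counted with stretches of 50 bases.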

Additional observations from a re-analysis of the deposited data

Results flagged for a closer look

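Among 74 groups tested (37 named genes on each side), 4 had a library far from the other 4 of its side, where chance gives about 1 in 20. Dnajb1 was 157 CPM in right replicate 4 and 106 to 117 CPM in the other right libraries. Hspa1b was 2.92 CPM in right replicate 3 and 0.648 to 1.27 CPM in the others. Hspa5 was 141 CPM in right replicate 2 and 208 to 222 CPM in the others. Hspa8 was 227 CPM in the same library and 308 to 340 CPM in the others. Left replicate 2 was also the lowest left library for Hspa5, at 153 CPM, and for Hspa8, at 234 CPM.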

How the results depend on the processing

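No gene of the family was called between the sides under any scaling, filter, test, covariate or omission that was run, except in replicates 1 and 5 alone, where 3 genes were called among 1400 of 14566 genes. There Dnajc1 had a log2 fold change of 0.45 and Dnajb12 of -0.17, against 0.16 for Dnajb12 in all libraries; the cause was not tested. The median log2 fold change of the family lay between -0.050 and 0.016 with 1 library left out at a time, and was -0.099 by limma-voom. With the replicate block it was -0.022, with 0 genes of the family and 0 of all genes called (311 at an unadjusted p under 0.05), so the pairing changed no call; with replicates 1 and 5 of each side summed as well, an alternative chosen after seeing the data, it was -0.021. Of 887 values of the 37 genes named by rule, a set that leaves out Dnajb5 and Dnajc8, 885 kept their side of the threshold and lay within the interval of the fit to all libraries; 172 had the other sign, none of them called. Depth limits Dnajb13 and Hspb1, with 2 to 50 and 3 to 78 reads per library. The level of Hspb1 is also uncertain because 51.6% of its 50-base stretches are present in other genes.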
